A study of Mus musculus with 6106 samples.

Results

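Regulatory T cells (Tregs), a CD4 lineage set by the factor Foxp3, hold back the responses of other lymphocytes. The cells described here were sorted from spleen as Tregs and held transcripts of 6 genes of the early response to the T cell receptor (TCR). They were chosen by the counts of these genes alone. Whether TCR signals gave rise to these counts was not tested. A cell entered the gate when it held at least 500 unique molecular identifiers (UMIs, each counting 1 captured transcript) and at least 2 UMIs summed over Nr4a1, Egr1, Egr2, Tnfrsf9, Cd83 and Nfkbid. Of the 6106 deposited cells, 5435 held at least 500 UMIs, and 522 of these were gated. The gate was set on measured values, so the levels of the 6 genes describe the choice and are no result.

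The cells came from spleens of male mice aged 10 months with the genotype given as B6 Nr4a1-Gfp Foxp3-Ires-Thy1.1. In these mice green fluorescent protein (GFP) reports Nr4a1 and Thy1.1 reports Foxp3. All groups share both reporters. Live TCRb+ CD4+ FoxP3-Thy1.1+ cells were sorted into GFPlow (0-20%), GFPmed (40-60%) and GFPhigh (80-100%), and each bin gave 1 library by inDrops, a droplet method for single cells. With 1 library a bin and no statement of how many mice were pooled, no test between cells or bins was possible. Intervals below are exact 95% intervals that cover counting error only.

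When a TCR binds peptide on MHC, calcium, MAP kinase and protein kinase C signals switch on genes within minutes to hours. Nr4a1 encodes an orphan nuclear receptor, and Egr1 and Egr2 encode zinc-finger factors of the immediate early wave. Tnfrsf9 encodes the costimulatory receptor 4-1BB, Cd83 a surface protein of activated lymphocytes, and Nfkbid the nuclear inhibitor IkB-NS. These 3 genes respond to NF-kappa-B, and Tregs are known to need continued TCR signals to keep their activated state.

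The promoters of the gate genes were searched for binding sequences of factors that TCR signals induce, because the gate rests on genes of that response. Of the 6 genes, 4 had an entry in the RefSeq promoter table (250 bases before to 50 bases after the start of the gene, GRCm38.p6). A single match was found, an EGR sequence in the Nr4a1 promoter at chr15:101266596-101266895 on the plus strand. It begins 60 bases before the gene's start and is printed in capitals, read on the reverse strand of the motif.
Nr4a1 promoter: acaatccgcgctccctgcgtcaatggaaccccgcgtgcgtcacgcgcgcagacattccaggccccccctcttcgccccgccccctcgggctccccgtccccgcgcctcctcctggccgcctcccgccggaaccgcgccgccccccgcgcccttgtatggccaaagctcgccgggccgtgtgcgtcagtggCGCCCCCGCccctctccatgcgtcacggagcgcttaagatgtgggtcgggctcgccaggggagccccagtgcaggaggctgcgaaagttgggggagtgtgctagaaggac
Motifs were matched on both strands as GCGNGGGCG for EGR, TGACGTCA for CRE and TGANTCA for AP-1, with NF-kappa-B and the CArG box also searched. The letters of CRE and AP-1 do not hold each other. Of the genes at least 2-fold higher in gated cells (defined below), 102 had a promoter entry, and 15.7% of these held the EGR letters, against 10.6% of 5797 promoters of measured genes and 5.55% of all 27025 promoters. The AP-1 letters were in 9.80%, 4.52% and 7.93% of the same sets. CRE letters were in 2.94%, 3.45% and 1.88%. A match is a description of letters and not a bound site.

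The share of gated cells was higher from bin to bin. In GFPlow 72 cells were gated, which is 3.39% (interval 2.66 to 4.25). In GFPmed 8.26% (6.93 to 9.75) of 1537 cells were gated. In GFPhigh 323 of 1775 cells were gated, or 18.2% (16.4 to 20.1). The intervals of the 3 bins did not overlap. Deeper cells have more chances to reach 2 UMIs, and gated cells had a median of 1187.5, 1875 and 1403 UMIs in GFPlow, GFPmed and GFPhigh against 1083, 1519 and 1082.5 in the other cells. After each cell was thinned to 500 UMIs, 1.46% (0.994 to 2.07), 2.54% (1.81 to 3.45) and 8.51% (7.25 to 9.90) of cells reached the gate, so that the GFPlow and GFPmed intervals then overlapped. The bins were sorted on the protein product of the Nr4a1 reporter, and the labels do not say whether reporter transcripts add to the Nr4a1 count.

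**Figure D1:**
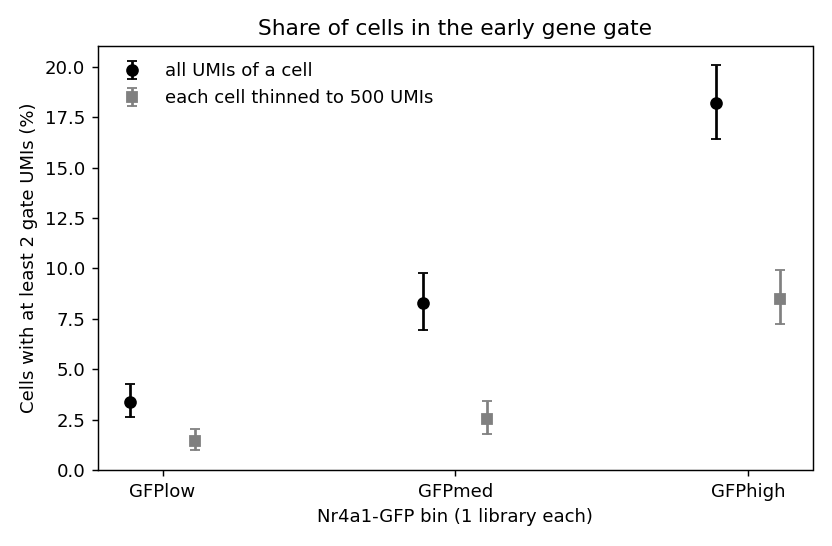
Share of cells with at least 2 gate UMIs in each Nr4a1-GFP bin, in percent of cells with at least 500 UMIs; black circles use all UMIs, grey squares use cells thinned to 500 UMIs, and bars are exact 95% Clopper-Pearson intervals. GFPhigh is the highest at 18.2% with all UMIs and at 8.51% after thinning.

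The edge of the gate ran through a graded score. Just outside it, cells with 1 gate UMI made up 6.78% in GFPlow, 11.7% in GFPmed and 15.6% in GFPhigh. Just inside, cells with 2 gate UMIs made up 1.74%, 3.77% and 5.86%. Cells with 4 or more made up 0.895%, 2.93% and 8.85%, and the highest score of a cell was 24 in GFPlow, 39 in GFPmed and 66 in GFPhigh. Of the gated cells, 40.6% held UMIs of 1 gate gene, 36.2% of 2 and 23.2% of 3 or more. The commonest combination was Tnfrsf9 alone in 86 cells, followed by Nr4a1 alone in 62 and Tnfrsf9 with Cd83 in 46.

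The gate genes contributed differently in the 3 bins. Tnfrsf9 was detected in 18.1%, 29.9% and 60.7% of gated cells in GFPlow, GFPmed and GFPhigh, against 1.32%, 3.40% and 7.44% of the other cells. Egr1 ran the other way, with 45.8%, 34.6% and 25.1% of gated cells. Gated cells whose gate UMIs came from Nr4a1, Egr1 and Egr2 alone made up 47.2% of gated GFPlow cells, 33.9% of GFPmed and 21.1% of GFPhigh. Cells with UMIs of both triplets made up 23.6%, 29.1% and 39.9%. Gated cells of the 3 bins are therefore not the same mixture, which bears on each comparison between bins below.

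A measure that the gate did not use is each gate gene in cells chosen by the other 5. Levels are given as UMIs per 1000000 UMIs of the pooled cells (UPM), and log2 ratios of a single bin were taken with 0.5 UMI added. Cells gated without Nr4a1 held Nr4a1 at 494, 549 and 1135 UPM in GFPlow, GFPmed and GFPhigh, against 21.99, 58.2 and 154.4 UPM in the remaining cells. Egr2 was at 242.1, 173.4 and 232.9 UPM in cells gated by the other genes against 6.37, 2.20 and 5.12 UPM. Nfkbid was at 252.8, 196.7 and 244 UPM against 18.7, 27.8 and 19.2 UPM. Combined over bins by the Mantel-Haenszel ratio, which sets gated against other cells within each bin, the folds were 8.01 for Nr4a1, 9.62 for Egr1, 49.5 for Egr2, 5.04 for Cd83, 10.7 for Nfkbid and 2.84 for Tnfrsf9. The counting interval of the log2 ratio lay above 0 in each bin for these genes except Tnfrsf9 in GFPlow, where 4 UMIs gave 1.59 (-0.50 to 2.89). The 6 genes thus appeared in the same cells more often than in others, with the smallest fold for Tnfrsf9.

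The label of the cells was checked against markers. Foxp3, the defining factor of Tregs, was at 442, 370 and 344 UPM in gated cells of GFPlow, GFPmed and GFPhigh, against 388, 312 and 363 UPM in the other cells. Its log2 ratio over bins was 0.05, with GFPhigh at -0.08 (-0.33 to 0.16). Foxp3 had a UMI in 34.9% of gated and 30.7% of other cells, and in 4.23% of 71 cells that held at least 5 UMIs of another cell type's markers and at most 1 UMI of Cd3e, Cd3g, Cd3d, Cd4 and Lck. The median depths were 1455.5, 1182 and 1148 UMIs. After thinning to 500 UMIs the order of gated and other cells turned, at 12.5% (9.74 to 15.6) and 15.8% (14.8 to 16.8), with 0 of the 71 cells. Cd4 was at 725, 437 and 515 UPM in gated and 551, 379 and 450 UPM in other cells. The gated cells therefore carried Treg and CD4 T cell transcripts at levels near those of the other cells.

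The gate is not particular to T cells. Of the 71 cells with another type's markers, 10 were gated, or 14.1% (6.97 to 24.4), and 4 after thinning. B cells and myeloid cells are known to use Egr1, Nr4a1 and Cd83 when activated. The part of free RNA in this share was not tested. At least 2 UMIs of other cell types' markers were held by 13.9%, 14.2% and 11.1% of gated cells in GFPlow, GFPmed and GFPhigh against 4.78%, 9.15% and 6.68% of the others. The summed B cell markers were at 917 UPM in gated against 276.03 UPM in other GFPlow cells, at 694 against 370 UPM in GFPmed and at 326.8 against 405 UPM in GFPhigh, with 3, 2 and 3 of the 12 markers in the table at 0 in gated cells. Myeloid markers were at 79.2 against 80.1 UPM in GFPlow, 1281 against 124.6 UPM in GFPmed and 76.9 against 85.1 UPM in GFPhigh. In GFPmed the lysozyme genes Lyz1, at 545 UPM in gated against 1.76 UPM in other cells, and Lyz2, at 324 against 0.440 UPM, gave most of that sum, and all gated cells together held Lyz1 UMIs in 4 cells. Results that these cells could touch are given again below without the cells that hold at least 2 such UMIs.

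Genes were compared between gated and other cells of the same bin, leaving out the gate genes. The 7517 genes with at least 10 UMIs expected in gated cells from their level over all cells were measured. That level includes the gated UMIs, so genes high in gated cells reached the minimum more easily. Rgs16, Stx11 and Lilrb4a, among the highest genes below, passed at 18.0, 13.5 and 10.8 expected UMIs. In other cells Rgs16 had only 16, 11 and 8 UMIs in GFPlow, GFPmed and GFPhigh. The shares of higher genes below include such genes. A gene was counted as higher or lower where the ratio over bins was at least 2-fold and the 3 bins had the same direction. By this rule 1.82% of the measured genes were higher in gated cells and 1.6% were lower. Within single bins, where fewer genes reached the minimum, at least 2-fold higher and lower were 1.19% and 2.75% of 1345 genes in GFPlow, 2.11% and 2.61% of 3561 in GFPmed, and 3.86% and 2.17% of 6168 in GFPhigh. At a minimum of 50 expected UMIs, 2737 genes were measured, of which 29 were higher (1.06%) and 11 lower (0.402%). Leaving out GFPhigh, the library with the most gated cells, gave 65 higher genes of 4594 measured, of which 21 also passed with the 3 bins. Gating on thinned counts gave 83 of 4389, of which 37 passed with all UMIs. Scaling by the trimmed mean of M values (TMM) also left 83 higher genes and moved the median log2 ratio of all measured genes from 0.06 to -0.09. Once cells with at least 2 marker UMIs of another type were left out, 102 genes were higher.

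Irf4 and Rgs16 led the higher genes. Rgs16 encodes a regulator that shortens G protein signals from chemokine receptors and lies at chr1:153740349-153745468 on the plus strand (GRCm38). It was at 56.6, 37.4 and 113 UPM in gated cells of GFPlow, GFPmed and GFPhigh against 6.82, 4.84 and 4.57 UPM in other cells. The fold over bins was 16.9, from 33 gated cells that held 5, 9 and 59 Rgs16 UMIs in the 3 bins. The log2 ratio of Rgs16 over bins, 4.08, was 2.99 without GFPhigh and 5.22 among cells of at least 1000 UMIs. A Rgs16 UMI was found in 6.32% of gated cells, 0.509% of other cells and 0 of the 71 cells of other types, which allows a share of cells with a UMI of up to 4.23% by the limit of 3 counts and 5.06% as the exact upper bound.

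Irf4 encodes a transcription factor that is induced in proportion to TCR signal strength and is needed by effector Tregs. It was at 192.5, 49.9 and 113 UPM in gated cells and at 15.8, 6.16 and 13.7 UPM in other cells. The log2 ratios were 3.63 (2.69 to 4.47) in GFPlow, 3.03 (1.77 to 4.24) in GFPmed and 3.03 (2.34 to 3.80) in GFPhigh. B and plasma cells use Irf4 too, and with cells of at least 2 other-type UMIs left out the ratios were 3.13 (1.90 to 4.12), 2.83 (1.40 to 4.14) and 3.37 (2.59 to 4.25). The difference was as large in GFPhigh without those cells and smaller in GFPlow, where 10 of 17 gated UMIs remained.

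Surface and secreted products of activation were also among the 15 highest genes. Cd69, a membrane protein that holds activated T cells in tissue by removing the egress receptor S1pr1, was at 170, 283 and 169.2 UPM in gated cells against 68.6, 57.2 and 34.3 UPM. A Cd69 UMI was found in 8.43% (6.19 to 11.2) of gated and 2.79% (2.35 to 3.29) of other cells after thinning to 500 UMIs, and in 1.41% of the cells of other types. Pdcd1, the inhibitory receptor PD-1, was at 67.9, 137.2 and 98.03 UPM against 8.95, 11.005 and 37.7 UPM. Its log2 ratio was 3.63 (2.85 to 4.45) in GFPmed and 1.38 (0.82 to 1.93) in GFPhigh, where the other cells already held more Pdcd1. After thinning, Pdcd1 UMIs were in 7.87% (3.84 to 14.0) of gated and 0.851% (0.441 to 1.48) of other GFPmed cells, but in 2.48% (1.08 to 4.82) and 1.93% (1.29 to 2.78) of GFPhigh cells, where the intervals overlapped. The log2 ratio of Pdcd1 over bins was 2.04, and 3.50 without GFPhigh. Tnf, a cytokine of early T cell activation, was at 56.6, 49.9 and 59.6 UPM against 12.8, 13.2 and 11.4 UPM. Penk, the precursor of enkephalin peptides, was at 45.3, 24.9 and 309.5 UPM against 4.69, 6.60 and 72.6 UPM. Gated Penk UMIs lay in 36 cells, with 12.9% of them in 1 cell, so its counting interval understates the spread between cells.

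The rest of the 15 highest were Irf8, Gadd45b, Rilpl2, Stx11, Bhlhe40, Bcl2a1a, Bcl2a1d, Lilrb4a and Ung. Irf8 had 4.92-fold more UMIs over bins, and the log2 ratio of Irf8 was 1.61 without GFPhigh against 2.30 with it. An Irf8 UMI was found in 10.3% of gated cells, 1.87% of other cells and 26.8% of the 71 cells of other types. With cells of at least 2 other-type UMIs left out, the Irf8 ratios were 1.99 (-0.12 to 3.33) in GFPlow, 2.03 (0.47 to 3.30) in GFPmed and 2.79 (2.19 to 3.43) in GFPhigh. Bhlhe40, a factor of cytokine control in T cells, had 4.36-fold more. Gadd45b, a stress-response gene that acts on p38 kinase, had 4.72-fold and Rilpl2 4.69-fold. Stx11, a syntaxin of granule release, had 6.05-fold, and without the cells of other types its GFPmed ratio rested on 4 gated UMIs at 1.98 (-0.23 to 3.63). Bcl2a1b, a relative of the survival factor Bcl2 and the highest gene with at least 50 expected UMIs, was at 203.8, 203.7 and 363 UPM against 85.2, 61.6 and 83.99 UPM. The copies Bcl2a1a, Bcl2a1b and Bcl2a1d are nearly identical, so the split of reads among them is uncertain, as it is between Tagap and Tagap1.

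**Figure D2:**
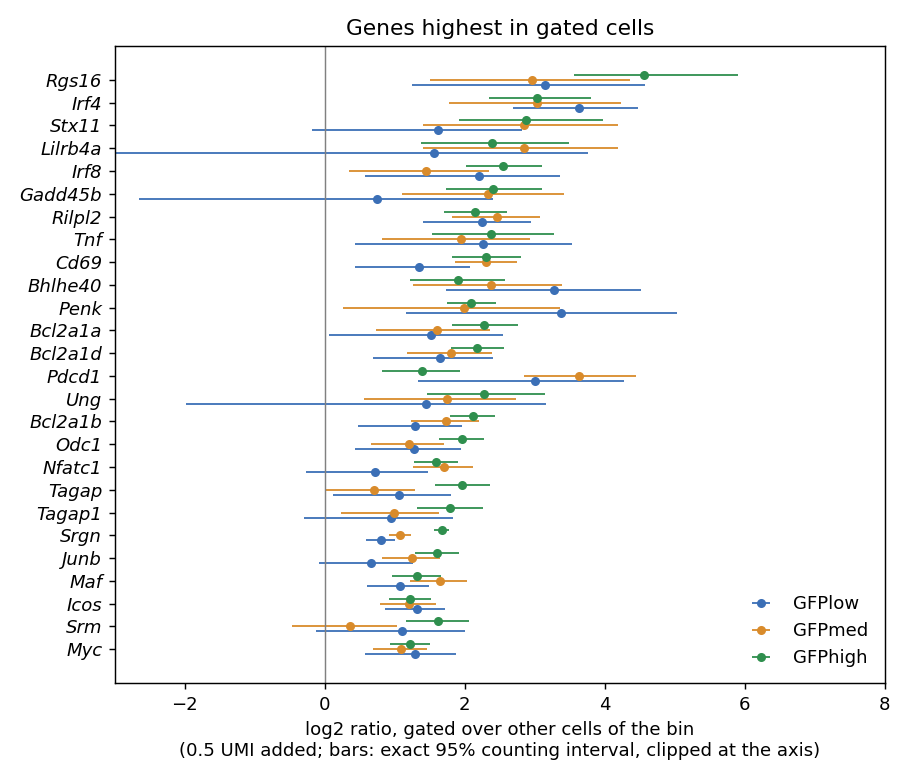
Log2 ratio of gated over other cells for the 26 genes highest in gated cells by the fixed rule (15 of all measured genes and 15 of those with at least 50 expected UMIs, with genes in both shown once), in GFPlow, GFPmed and GFPhigh. Points carry 0.5 added UMI and bars are exact 95% counting intervals; Rgs16 reaches 4.56 in GFPhigh and the genes near the bottom, such as Myc and Icos, lie between 1.09 and 1.32 in each bin.

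Among better counted genes the differences were smaller. Srgn, the core protein of secretory granule proteoglycan, was at 2309.5, 1642 and 2537 UPM in gated cells against 1330, 780 and 799 UPM. Icos, a costimulatory receptor, was at 577, 283 and 308 UPM against 234, 123.3 and 132.6 UPM. Myc, which drives growth and biosynthesis, was at 260, 291.05 and 350 UPM against 109, 137.3 and 150 UPM. Maf, a factor of follicular and effector T cells, was at 543, 278.6 and 236.4 UPM against 260, 89.8 and 95.4 UPM. The counting intervals of these 4 genes lay above 0 in each bin. Srgn had log2 ratios of 0.80 (0.58 to 1.001), 1.08 (0.91 to 1.23) and 1.67 (1.56 to 1.78), with GFPhigh above the intervals of the other bins.

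Gene lists, chosen with earlier results of these data known, were read next by their counts and medians. The median over all measured genes was 0.06. Of all measured genes, 1.82% passed the 2-fold rule as higher and 1.6% as lower. A further 2 shares count genes with 1 direction in all 3 bins together: 18.2% were higher and 14.5% were lower. These shares are the background of each list's counts below. The share of all measured genes above or below 0 over bins was not counted. Their median of 0.06 places more of them above 0 than below it. Of 27 listed TCR-induced transcription factors, 17 were measured, 15 were higher over bins and 11 passed the 2-fold rule, with a median log2 ratio of 1.34 (background 1.82% of genes). Nfatc1, the calcium-responsive factor that amplifies itself, was at 147.2, 261.9 and 323 UPM in gated against 92.9, 80.99 and 107.4 UPM in other cells. Crem, a cyclic AMP-responsive factor, was at 90.6, 33.3 and 69.2 UPM against 14.9, 15.8 and 14.9 UPM. Kdm6b, Nab2, Batf, Junb and Ier2 also passed, with log2 ratios over bins from 1.04 for Ier2 to 1.69 for Kdm6b. Ikzf1 and Runx1 were at -0.06 and -0.40. The median was 1.20 with TMM scaling and 1.28 without cells holding UMIs of other types.

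NF-kappa-B genes and their inhibitors formed a second group. Of 18 members all were measured, 16 were higher over bins and 5 passed the rule, against 1.82% of all measured genes. The median was 0.71. Rel, the subunit c-Rel that Tregs need, was at 11.3, 41.6 and 34.6 UPM in gated and 4.69, 8.36 and 12.6 UPM in other cells. Tnfaip3, the ubiquitin-editing inhibitor A20, was at 102, 83.2 and 130.7 UPM against 58.4, 39.2 and 41.7 UPM. Nfkbia, which encodes IkB-alpha, was at 317, 686 and 715 UPM against 321, 308 and 414 UPM, with log2 ratios of 0.01 (-0.62 to 0.52), 1.16 (0.90 to 1.40) and 0.79 (0.60 to 0.97). Icam1, an adhesion molecule, was higher by 1.93 on the log2 scale over bins and by 1.86 without the cells of other types.

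Receptors of costimulation and inhibition were read as separate lists. Tnfrsf4, the receptor OX40, was at 135.8, 382.5 and 592 UPM in gated against 109, 143.9 and 266 UPM in other cells, with log2 ratios of 0.38 (-0.65 to 1.15), 1.42 (1.06 to 1.75) and 1.16 (0.94 to 1.37). Tnfrsf1b, the TNF receptor TNFR2, was at 147.2, 291.05 and 274.9 UPM against 115.4, 88.5 and 145.7 UPM. Of 13 measured costimulatory genes 4 passed the rule, against 1.82% of all measured genes. Their median was 0.37, with Cd28 at 0.12 and Cd27 at 0.17. Of 12 measured coinhibitory genes 3 passed, namely Pdcd1, Lag3 and Cd200, and the median was 0.64. Ctla4, which removes costimulatory ligands from other cells, was at 203.8, 174.6 and 161.5 UPM against 104.4, 83.2 and 137.1 UPM.

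The core Treg genes differed little by their median. Of 20 measured identity genes 15 were higher over bins and 2 passed the rule, against 1.82% of all measured genes. The median was 0.12, which was -0.02 with TMM scaling. Il2ra, the interleukin 2 receptor alpha chain, was at 260, 407 and 565 UPM in gated against 319.1, 377 and 494 UPM in other cells. Ikzf2, which encodes Helios, was at 0.55 and Satb1 at -0.32 on the log2 scale over bins. The interleukin 2 and STAT5 list had no member past the rule in either direction among 15 measured, with a median of -0.04 (0.01 with other cells weighted to the depth of gated cells). Socs3, a feedback inhibitor of cytokine signals, was at -0.68, the lowest of that list, at 113, 133.1 and 98.03 UPM in gated against 257.7, 207.8 and 144.6 UPM in other cells. Suppressive molecules had a median of 0.81, with Penk, Lag3, Ebi3 and Tgfb1 past the rule among 12 measured.

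Feedback inhibitors of the TCR and MAP kinase pathways were mixed. Of 23 measured, 16 were higher over bins and 5 passed the rule, against 1.82% of all measured genes. Dusp6, a phosphatase of ERK, was at 90.6, 49.9 and 74.96 UPM in gated and 22.6, 20.2 and 15.4 UPM in other cells. Dusp2, a nuclear phosphatase of MAP kinases, was at 442, 345 and 465 UPM against 155.9, 205 and 218.3 UPM. Rgs1 and Dgka were at -0.04 and -0.18 over bins, and the TCR complex and signalling list had a median of 0.04 (-0.11 with TMM scaling). Themis, a TCR signalling adaptor, was the member of that list past the rule, at -1.58, from 4 gated UMIs.

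Growth genes were higher in number but by less than 2-fold for most. Of 36 biosynthesis genes 35 were higher over bins and 5 passed the rule, against 1.82% of all measured genes. The median was 0.66, from 0.35 in GFPlow and 0.36 in GFPmed to 0.82 in GFPhigh. Odc1, the first enzyme of polyamine synthesis and a target of Myc, was at 192.5, 166.3 and 336 UPM in gated against 81.8, 72.6 and 86.9 UPM in other cells. Ncl, which encodes nucleolin, was at 350.96, 541 and 850 UPM against 419, 452 and 449 UPM, so GFPlow went the other way. Mthfd2, of mitochondrial folate metabolism, was the member with a negative ratio, at -0.32. Glycolysis genes had a median of 0.35 among 13 measured and none passed the rule. Ribosomal protein genes were slightly lower, with 78 of 83 below 0 over bins and a median of -0.17 (-0.32 with TMM scaling), and they made up 226661, 262395 and 236996 UPM of gated against 256028, 296336 and 266473 UPM of other cells.

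Survival genes split within the Bcl2 family. Bcl2l1, which encodes Bcl-xL, was at 11.3, 41.6 and 82.7 UPM in gated against 15.8, 18.9 and 16.6 UPM in other cells. The log2 ratio of Bcl2l1 over bins was 1.83, and 0.87 without GFPhigh. Bcl2 was at 350.96, 391 and 348 UPM against 384, 467 and 498 UPM, with GFPhigh at -0.51 (-0.76 to -0.29). Mcl1 was at -0.05 over bins. The list of 13 measured genes had a median of 0.19 and 3 members past the rule, which were Bcl2a1b, Bcl2a1d and Gadd45b.

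Genes of resting and recirculating T cells were lower. Of 22 measured, 20 were lower over bins, 14 were lower in each of the 3 bins (14.5% of all measured genes were), and 2 passed the 2-fold rule, with a median of -0.46. Klf2, the factor that drives egress and homing receptors, was at 464, 374.2 and 236.4 UPM in gated against 722, 595 and 526 UPM in other cells. Its target S1pr1, the egress receptor, was at 532, 457 and 342 UPM against 714, 624 and 672 UPM. Igfbp4, a binding protein of insulin-like growth factors found in central Tregs, was at 215, 245.3 and 80.7 UPM against 440, 478 and 194.3 UPM, with intervals below 0 in each bin. Tsc22d3, a target of glucocorticoids and FOXO factors, was at 33.96, 62.4 and 59.6 UPM against 143.98, 133.4 and 92.6 UPM. Bach2 at -0.02 and Btg1 at 0.15 did not share the difference.

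**Figure D3:**
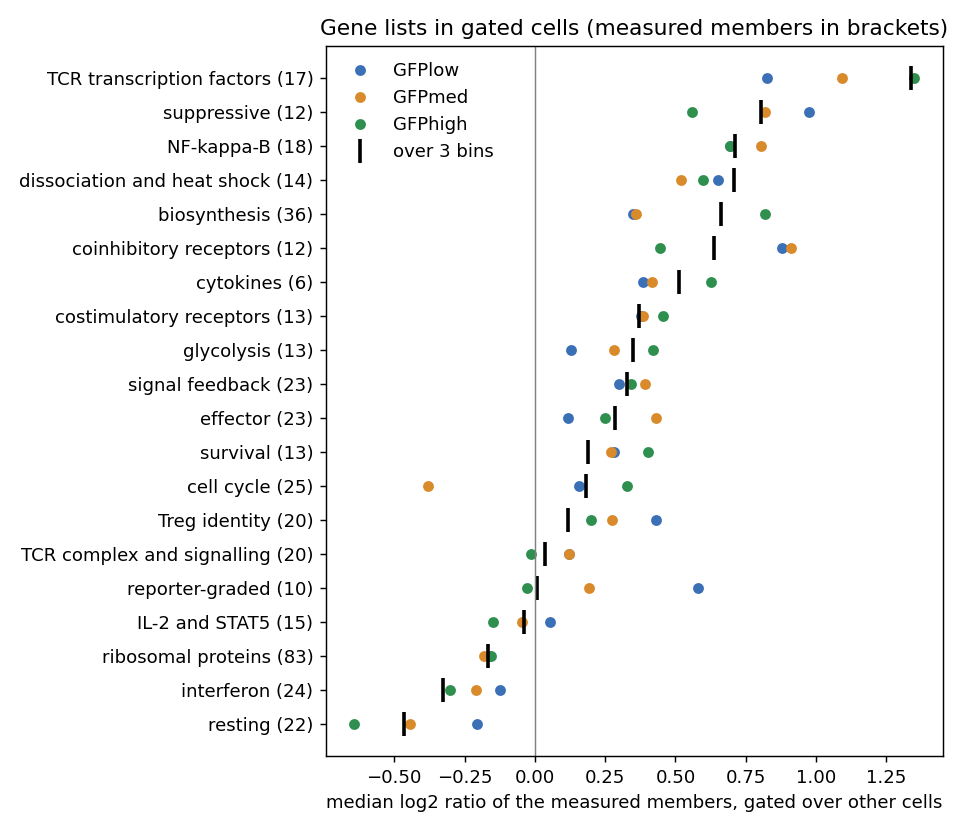
Median log2 ratio of gated over other cells for 20 gene lists, per bin (points, 0.5 UMI added) and combined over the 3 bins by the Mantel-Haenszel ratio (black ticks, no UMI added), with the number of measured members in brackets. TCR-induced transcription factors are highest at 1.34 and resting genes lowest at -0.46.

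Interferon-response genes were lower by less, with 20 of 24 below 0 over bins, a median of -0.33 and Usp18 past the rule at -1.28. Usp18, which shuts off interferon receptor signals, was at 11.3, 16.6 and 17.3 UPM in gated and 35.8, 40.1 and 40.6 UPM in other cells. Among 23 effector Treg genes 16 were higher over bins, the median was 0.28, and S100a11 and Maf passed the rule. S100a4, a calcium-binding protein of activated Tregs, was lower in gated GFPlow cells at 158.5 against 278.6 UPM and higher in GFPmed at 83.2 against 46.2 and in GFPhigh at 48.1 against 19.4 UPM. Cell cycle genes had a median of 0.18, and of -0.17 with other cells weighted to the depth of gated cells. Top2a, of mitosis, was at -1.64 (the log2 ratio of Top2a was -2.49 without GFPhigh and -0.79 without GFPmed) and the replication helicase gene Mcm6 at 0.74 over bins. Replication-dependent histones were among the lowest better counted genes, such as Hist1h3d at -1.43 (the log2 ratio of Hist1h3d was -2.37 without GFPhigh). Their copies are near-identical, and 49.1% of the gated UMIs of Hist1h2ao lay in 1 cell.

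The 15 genes lowest in gated cells included Hbb-bt, Hbb-bs, Hba-a2, Car2, Slc4a1, Hemgn and Fech, which are genes of red blood cells. Hbb-bt, a beta globin, had 0 gated UMIs against 352, 707 and 292.5 UPM in other cells of GFPlow, GFPmed and GFPhigh, at least 121.1-fold lower with 3 counts over all gated cells as the floor. Hba-a2 was at 33.96, 4.16 and 9.61 UPM against 668, 1696 and 682 UPM. Jchain, of plasma cells, had 1 gated UMI, and 90.8% of its UMIs in other cells lay in 1 cell. Summed erythroid markers were at 33.96, 8.32 and 15.4 UPM in gated against 1450, 3319 and 1359 UPM in other cells. The Hbb-bs log2 ratio over bins was 0.08 once cells with at least 2 marker UMIs of another type were left out, a step that removes cells by these markers.

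Genes of tissue dissociation and heat shock overlap the immediate early response and were also counted as a list of their own. Of 23 listed, 14 were measured, 12 were higher over bins and 5 passed the rule, which were Junb, Ier2, Dusp1, Zfp36l1 and Hsph1. Fos, Fosb, Jun, Junb, Atf3 and Ier2 are also in the list of TCR-induced transcription factors, so Junb and Ier2 count in both. Zfp36l1, an RNA-binding protein that destabilises transcripts, was at 589, 699 and 928 UPM in gated against 281.6, 273.8 and 436 UPM in other cells. The constitutive chaperone gene Hspa8 was at 713, 786 and 901 UPM against 716, 714 and 825 UPM. Fos was under the minimum, with 2, 7 and 9 gated UMIs against 3, 6 and 4 in other cells of the 3 bins. These counts made 22.6, 29.1 and 17.3 UPM in gated against 1.28, 2.64 and 2.29 UPM in other cells. Jun had 0, 0 and 4 gated UMIs against 19, 8 and 9. In UPM, Jun was at 0, 0 and 7.69 against 8.09, 3.52 and 5.14. The part of dissociation in the gate was not tested.

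Levels followed the gate score in a graded way for part of the genes. In GFPhigh, Klf2 was at 549, 440, 403, 233.2 and 137.1 UPM in cells with 0, 1, 2, 3 and at least 4 gate UMIs. Tnfrsf4 was at 238, 369, 333, 375 and 830 UPM over the same classes, and Odc1 at 73.1, 138.4, 176.1, 223.1 and 476 UPM. Myc was at 164.3, 97.7, 113, 91.3 and 590 UPM, so its higher level in gated GFPhigh cells lay in those with at least 4 gate UMIs. Tagap showed the same shape, at 60.1, 62.4, 81.8, 40.6 and 404 UPM. Foxp3 was at 349, 418, 447, 284 and 304.6 UPM with no single direction. In GFPhigh, cells with 1 gate UMI lay between the 0 class and the class of at least 4 for Klf2, Tnfrsf4 and Odc1. In GFPmed this held for Tnfrsf4 at 257.2 UPM, while Klf2 was at 590 against 596 UPM in the 0 class and Odc1 at 47.05 against 76.8 UPM. Myc in GFPmed was at 138.3, 131.7, 64.7, 376.1 and 523.1 UPM over the classes. There the cells with 3 gate UMIs were higher too.

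**Figure D4:**
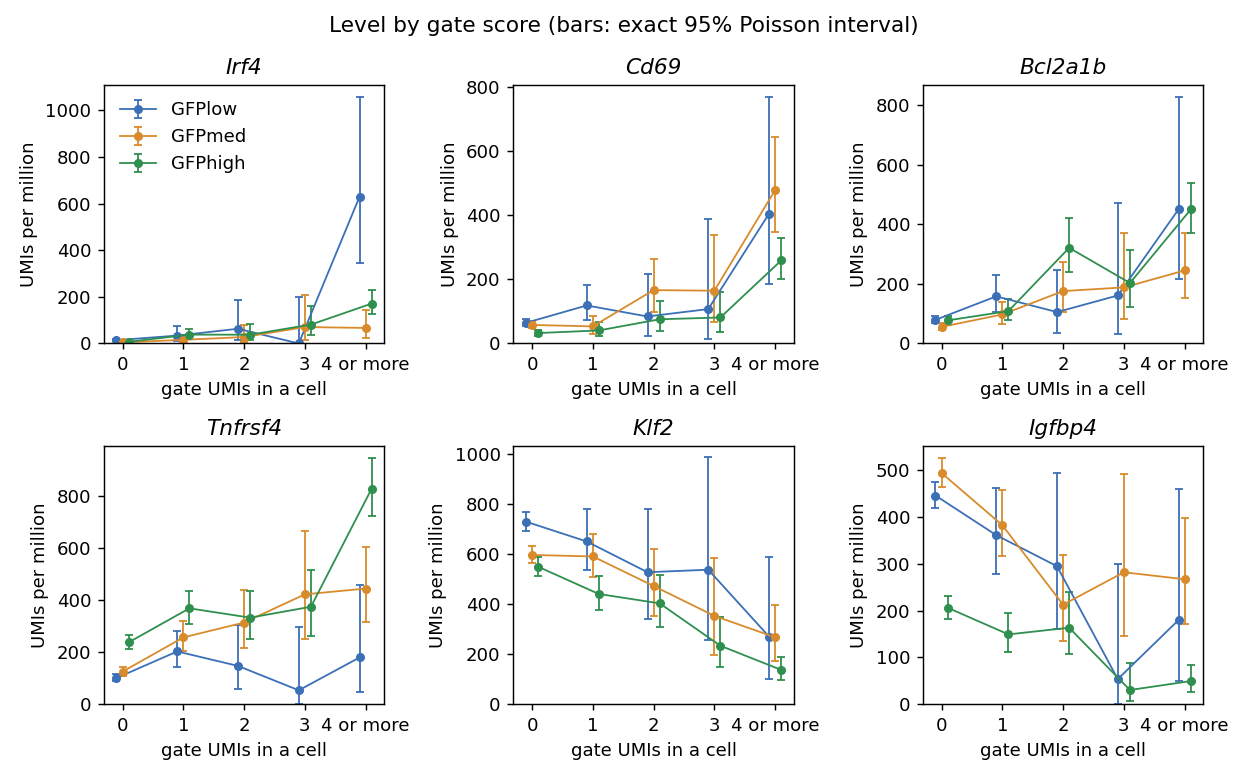
Level in UPM of Irf4, Cd69, Bcl2a1b, Tnfrsf4, Klf2 and Igfbp4 in cells with 0, 1, 2, 3 and 4 or more gate UMIs, per bin, with exact 95% Poisson intervals. Klf2 in GFPhigh goes from 549 to 137.1 UPM over the classes, and Tnfrsf4 goes from 238 to 830 UPM.

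Gated cells differed by which gate genes they held. This split was chosen after the values were seen. In GFPhigh, 68 cells held UMIs of Nr4a1, Egr1 and Egr2 alone, 126 of Tnfrsf9, Cd83 and Nfkbid alone, and the remaining 39.9% of both, at median depths of 1265.5, 1462.5 and 1425 UMIs. Klf2 was at 677 UPM (520 to 866) in the cells with Nr4a1 and Egr UMIs alone, at 143.001 (97.8 to 201.9) in the cells of the other triplet alone, at 137.7 (91.5 to 198.9) in cells with both and at 526 (492 to 560.8) in ungated cells. Odc1 was at 107.5 (51.5 to 197.6), 349 (275.5 to 435), 428 (343 to 528) and 86.9 (73.6 to 102) UPM in the same order. Cd69 went another way, at 182.7 (106 to 292.5), 40.2 (18.4 to 76.3), 304.8 (234 to 391) and 34.3 (26.2 to 44.1) UPM.

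The other bins gave part of this order. In GFPmed, Klf2 was at 459 (327.99 to 625), 394 (271.2 to 553), 244 (142.2 to 391) and 595 UPM in cells with Nr4a1 and Egr UMIs alone, the other triplet alone, both, and ungated cells, so the first subset was not above ungated cells and overlapped the second. Odc1 was at 68.9, 250.7, 186.7 and 72.6 UPM in the same order. Bcl2a1b was at 80.3, 215, 345 and 61.6 UPM in that order. Cd69 in GFPmed was at 218.1, 167.1, 503 and 57.2 UPM, so that the cells of the Tnfrsf9 triplet were not as low as in GFPhigh. In GFPlow the 3 subsets held 34, 21 and 17 cells and their intervals overlapped for Klf2.

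**Figure D5:**
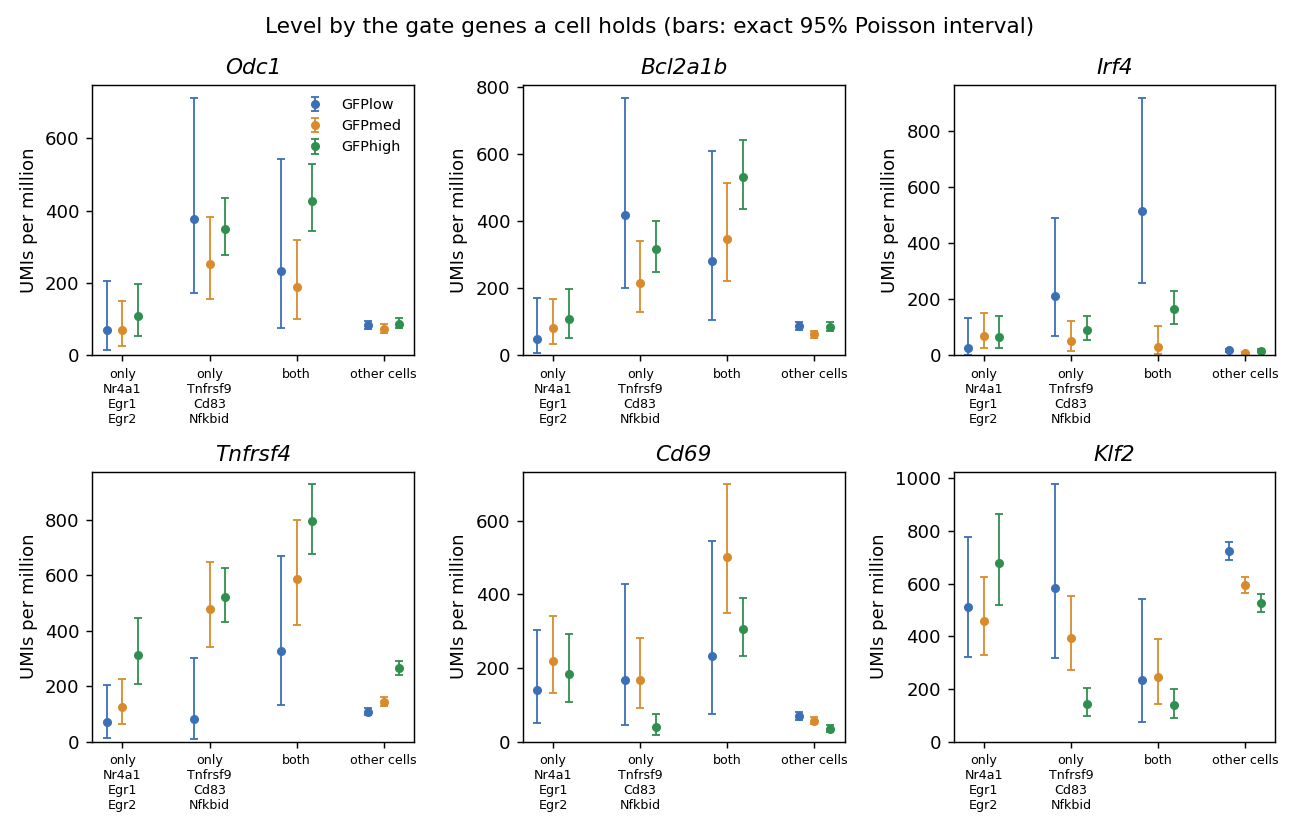
Level in UPM of Odc1, Bcl2a1b, Irf4, Tnfrsf4, Cd69 and Klf2 in gated cells with UMIs of Nr4a1, Egr1 and Egr2 alone, of Tnfrsf9, Cd83 and Nfkbid alone, of both, and in ungated cells, per bin with exact 95% Poisson intervals. In GFPhigh, Klf2 is at 677 UPM in the first subset against 143.001 and 137.7 UPM in the second and the third, and Cd69 is at 40.2 UPM in the second.

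Gated cells were last compared between bins, which the sort itself separates. Of 4726 genes measured, 12% were at least 2-fold higher and 8.08% at least 2-fold lower in gated GFPhigh than in gated GFPlow cells. For GFPhigh over GFPmed these shares were 7.58% and 3.74% of 5423 genes, and for GFPmed over GFPlow 6.51% and 6.33% of 2827 genes. Gated GFPlow cells number 72, which keeps its intervals wide. Tnfrsf4 was at 592 against 135.8 UPM, a log2 ratio of 2.07 (1.30 to 3.09), and the ratio in ungated cells was 1.29. Penk was at 309.5 against 45.3 UPM, at 2.61 (1.39 to 4.67), with 3.89 in ungated cells. Il2ra was at 565 against 260 UPM, at 1.09 (0.50 to 1.80), with 0.63 in ungated cells. Among lower genes, Itgb1, the beta 1 integrin, was at 228.7 against 577 UPM, at -1.34 (-1.82 to -0.83). S100a6 was at 96.1 against 498 UPM, at -2.38 (-2.99 to -1.76). In ungated cells Itgb1 was at -1.69 and S100a6 at -2.78, so these differences were not particular to gated cells.

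Several early genes did not follow the bins. Cd69 was at 169.2 UPM in gated GFPhigh and 170 UPM in gated GFPlow cells, a ratio of -0.04 (-0.81 to 0.89), while ungated cells differed by -0.99. Pdcd1 was at 98.03 against 67.9 UPM, at 0.43 (-0.69 to 2.04), with 2.05 in ungated cells. Irf4 was at 113 against 192.5 UPM, at -0.79 (-1.56 to 0.11). Interferon genes were lower in gated GFPhigh than GFPlow cells for 19 of 19 measured, with a median of -0.83 against -0.43 in ungated cells. Over all genes measured between gated GFPhigh and GFPlow cells the median was -0.004. Effector genes had a median of -1.14 in gated and -1.38 in ungated cells, and reporter-graded genes 2.21 and 2.39. These lists were chosen with earlier results of these data known, so their direction between the bins is no result. For the effector and reporter-graded lists the medians inside the gate were close to those outside it. Other lists differed more, such as biosynthesis at 0.56 in gated and 0.09 in ungated cells. Coinhibitory genes were at -0.08 and 0.67.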

How the data were processed

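The authors deposited a table of raw UMI counts per gene and cell. Per the submitters' processing notes, TopHat2, SAMtools and mm10 were used, and the versions, counting program and UMI rule are not given in the sources used here. Each of the 6106 cells is a sample in the labels and each bin is 1 library. All columns matched a label and 0 were unused. Cell barcodes shared by the pairs of libraries numbered 33 for GFPlow and GFPmed, 35 for GFPlow and GFPhigh and 29 for GFPmed and GFPhigh, and 0 were shared between gated cells. Mitochondrial genes are not in the table.

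The 671 cells under 500 UMIs were left out, and no doublet caller was run. Cells used in GFPlow, GFPmed and GFPhigh summed to 2435870, 2512277 and 2270376 UMIs, of which gated cells held 88330, 240511 and 520245. A count of 3 gated UMIs is worth 34.0, 12.5 and 5.77 UPM in the 3 bins, which limits the precision of low genes. UMIs were summed over the gated and over the other cells of a bin and divided by the sums over all genes. Ratios of a single bin had 0.5 UMI added, with exact conditional binomial intervals. Ratios over bins are Mantel-Haenszel ratios without an interval. Levels have exact Poisson and shares exact Clopper-Pearson intervals. The procedure was tested on simulated counts. The intervals treat UMIs as independent, although some genes' UMIs lie in few cells.

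Named genes were the 15 highest and 15 lowest ratios with the same direction in the 3 bins, the same at a minimum of 50 expected UMIs (added after the values were seen), up to 4 members of each list with the largest ratios, and the 5 highest and lowest between bins. Further list members were named after their values were seen, as examples of a list. Ribosomal, antigen receptor and unnamed model genes were left out of the ranking. The members, the gate and the gene lists were chosen with earlier results of these data known. Gene positions come from GENCODE M21. Alternatives covered the gate, thinning, depth, other cell types, weighting, scaling by edgeR 4.0.16 in R 4.3.3, the minimum and each bin. Python 3.11.15 with numpy 2.4.6, scipy 1.17.1 and pandas 2.3.3 was used. Some listed or ranked genes are not reported here by name.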

Additional observations from a re-analysis of the deposited data

Results flagged for a closer look

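In 3 markers of other cell types the gated cells of GFPmed and GFPhigh went opposite ways, with counting intervals on either side of 0. The difference between the bins was not tested, since each bin is 1 library. Ly6d, a B cell marker, had a log2 ratio of gated over other cells of 2.95 (2.06 to 3.81) in GFPmed and -1.24 (-2.85 to -0.12) in GFPhigh, and its gated UMIs lay in 8 cells. Mzb1, a marker of plasma and B cells, was at 2.71 (0.39 to 4.73) in GFPmed from 4 gated UMIs, and had 0 gated UMIs against 38 in the other cells of GFPhigh, where the value with 0.5 UMI added, -4.52, is no bound. Cst3, of myeloid cells, was at 0.75 (0.20 to 1.24) in GFPmed and -0.61 (-1.30 to -0.02) in GFPhigh, with gated UMIs in 51 cells.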

How the results depend on the processing

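No paired analysis was possible because each bin has 1 library. The percent of measured genes higher in gated cells, 1.82% as reported, and the percent of measured genes lower in gated cells, 1.6%, were 2.09% and 7.17% with no filter on low genes, 1.06% and 0.402% at 50 expected UMIs, and 1.1% and 2.78% with TMM scaling, where 28.4% of the calls were higher against 53.3%. Gating on thinned counts gave 1.89% higher and 2.98% lower of 4389 genes, and leaving out GFPhigh 1.41% and 2.22% of 4594 genes. The remaining alternatives gave 1.46% to 2.75% higher and 1.63% to 2.32% lower. Which genes passed moved more than these shares: 37 of the higher genes on thinned counts, and 21 of those without GFPhigh, also passed in the reported values. The share of gated cells in GFPlow, GFPmed and GFPhigh was 1.65%, 4.49% and 12.3% at 3 gate UMIs, 1.46%, 2.54% and 8.51% on thinned counts, and 1.60%, 4.42% and 11.7% with UMIs of at least 2 gate genes, an alternative added after seeing the data as was the minimum of 50. Without Egr1 in the gate the GFPlow share was 2.40%. Without Nr4a1 the percent of cells gated in GFPmed was 6.25%, with 14.3% in GFPhigh, without Tnfrsf9 6.57% and 11.7%, and without Cd83 16.2% in GFPhigh. Among cells of at least 1000 UMIs the GFPhigh share was 23.03%. The order of the bins was the same in each of these. Ratios of 4 named genes turned in sign: Hbb-bs was 0.081 without cells holding other types' UMIs, Nrn1 was -0.79 and the log2 ratio of Lad1 -1.995 without GFPhigh, and Lyz1 was -1.89 with the gate without Nr4a1 and -1.43 with at least 2 gate genes. The cause was not tested. Adding 1 UMI in place of 0.5 changed the direction of none of the named genes' single-bin ratios. Depth limits GFPlow most, where 72 gated cells leave wide intervals.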

Other observations

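Several genes of T cell activation were too rare for the minimum of 10 expected UMIs. They are given as counts, were named after their values were seen, and their UMIs can lie in few cells. Gated cells held far fewer UMIs in total than other cells, so equal counts are not equal levels. Of 18 listed cytokine genes, 10, 9 and 7 were at 0 in gated cells of GFPlow, GFPmed and GFPhigh. Nr4a2, a paralog of Nr4a1, had 0, 8 and 10 UMIs in gated cells of GFPlow, GFPmed and GFPhigh and 0, 1 and 1 in all other cells. Il10, the suppressive cytokine, had 0, 5 and 8 gated UMIs against 0, 1 and 2. Areg, a growth factor of tissue repair, had 1, 6 and 0 against 1, 1 and 1. Ccl1, a chemokine that attracts CCR8-bearing cells, had 15 gated UMIs in GFPhigh and 1 in other cells of that bin. Tbx21, which encodes T-bet, had 11 gated UMIs in GFPhigh against 1, and 0 against 20 in GFPlow. Il2 was at 0 in gated and other cells of the 3 bins.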
